A study of Mus musculus with 5 samples.

Results

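The loci described are those of Ifng, Tbx21 and Eomes, which encode interferon gamma and the T-box transcription factors T-bet and Eomes. Their regions were all entries of the Runx3 and H3K4me1 lists that overlapped the gene body extended on each side by 100 kb for Ifng and by 30 kb for Tbx21 and Eomes, with genes taken from GENCODE vM1 on mm9. This gave 30 of 28127 regions, of which 9 were among the 9135 Runx3-bound regions and 21 among the 18992 H3K4me1-marked regions. By locus, 18 lay at Ifng, 10 at Tbx21 and 2 at Eomes.

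ChIP-seq was carried out on splenic CD8+ T cells (CD8-TC) of wild-type ICR mice, selected on anti-CD8 magnetic beads to a purity above 95%, activated through the T cell receptor with anti-CD3e and anti-CD28 for 2 days and then grown for 4 days in 100 u/ml IL-2. The labels list 5 libraries, namely 2 with an in-house antibody to Runx3, 2 with non-immune serum (NIS) as control and 1 with an antibody to H3K4me1. Peaks had been called 1 time per antibody on joined reads, so the lists hold no value per library, and since the protocol mentions 2 experiments for H3K4me1 as well, the number of libraries behind that list is unclear. All libraries shared genotype and treatment, hence loci and lists could be compared, but not conditions. The lists give positions only, with 0 columns of height or score, and read depth was not analysed here. A region not listed is therefore a region not called, and its absence carries no error estimate. Regions in or within 5 kb of marker genes were used to check the label. For T cell markers, 6 of 7 genes had a Runx3-bound region and 7 of 7 an H3K4me1-marked region, against 23.5% and 28.6% of 22350 protein-coding genes. The B cell list had 2 and 3 of 4, the myeloid list 1 and 1 of 4, and the NK cell list 0 and 1 of 2, with Ms4a1, Ncr1 and Lyz2 among the 5 genes that had neither.

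Interferon gamma is the cytokine through which cytotoxic T cells, NK cells and Th1 cells activate macrophages and raise antigen presentation. T-bet and Eomes bind related T-box sequences and both take part in switching on Ifng and the cytotoxic genes, with T-bet linked mainly to effector cells and Eomes also to memory cells. Runx3 is a runt domain transcription factor that shapes the CD8 lineage and binds DNA together with core-binding factor beta. H3K4me1 is a histone mark found at enhancers, active or poised, and on the flanks of promoters. Positions are given in kb from the annotated start of each gene, negative upstream and positive downstream along the gene's strand.

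Sequence stretches from 5 regions are shown for the motif letters described further on. They were read from the plus strand of NCBIM37 (mm9), and capitals mark RUNX letters, T-box letters and AP-1 letters on either strand. The RUNX forms searched were TGTGGT with its variants ending in C, written TGTGGC, or with C in the middle, written TGCGGT for the ending in T and TGCGGC for the ending in C. The T-box letters were GGTGTGA, and those of AP-1 were TGACTCA or, with G in the middle, TGAGTCA. The first is the 300 bases before the Ifng start (chr10:117877803-117878102), shown because it was the only start of the 3 genes inside a Runx3-bound region. The second comes from the region at -33.96 kb of Ifng (chr10:117844034-117844236), which held a close pair of RUNX motifs. The next is from the region at -13.8 kb of Tbx21 (chr11:96990450-96990510), with the closest RUNX pair of the loci, and the last 2 are from the Eomes regions (chr9:118397487-118397565 and chr9:118398830-118399007), which lacked the TGTGGT form.
Ifng 300 bases before the start: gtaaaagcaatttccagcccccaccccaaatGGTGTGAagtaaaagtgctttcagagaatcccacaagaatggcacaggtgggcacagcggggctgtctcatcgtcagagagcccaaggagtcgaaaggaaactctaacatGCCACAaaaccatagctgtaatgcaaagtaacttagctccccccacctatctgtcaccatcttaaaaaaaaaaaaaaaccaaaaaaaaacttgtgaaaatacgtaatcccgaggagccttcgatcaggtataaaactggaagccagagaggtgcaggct
Ifng -33.96 kb: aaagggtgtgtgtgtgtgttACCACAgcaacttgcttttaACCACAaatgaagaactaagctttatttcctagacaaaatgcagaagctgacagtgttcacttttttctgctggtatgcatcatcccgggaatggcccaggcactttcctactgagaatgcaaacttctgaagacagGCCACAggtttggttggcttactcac
Tbx21 -13.8 kb: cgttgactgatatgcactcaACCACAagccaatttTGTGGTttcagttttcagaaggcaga
Eomes 10.2 kb: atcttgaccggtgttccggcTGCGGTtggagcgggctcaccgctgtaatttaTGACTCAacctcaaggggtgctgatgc
Eomes 11.5 kb: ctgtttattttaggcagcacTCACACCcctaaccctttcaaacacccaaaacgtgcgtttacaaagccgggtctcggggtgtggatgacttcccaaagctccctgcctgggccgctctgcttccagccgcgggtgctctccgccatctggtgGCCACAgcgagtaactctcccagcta

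Ifng (ENSMUSG00000055170.3, chr10:117878103-117882948, plus strand) had 4 Runx3-bound and 14 H3K4me1-marked regions in its window of 205 kb. At least 4 Runx3-bound regions in the body extended by 100 kb were found for 17.0% of 22350 protein-coding genes, and at least 14 H3K4me1-marked regions for 3.94%. The count of marked regions was thus reached by fewer genes than the count of Runx3-bound ones. Over all genes the median at this extension was 1 Runx3-bound and 2 H3K4me1-marked regions. The Runx3-bound regions covered 2710 bp (1.32% of the window) and the marked ones 31366 bp (15.3%). No other gene intervened, as the nearest annotated neighbour, the protein-coding Gm9049, started at -86.8 kb, beyond the regions of either list. Outside the window the next Runx3-bound regions lay at 357.5 kb from the gene body on the upstream side and 153.8 kb on the other.

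The 4 Runx3-bound regions of Ifng were spread over both sides of the gene. One of them, chr10:117877487-117878253 (767 bp), ran from -0.616 to 0.150 kb and so covered the start, the 5′ untranslated sequence and coding sequence of the first exon. Upstream, chr10:117843832-117844450 (619 bp) was centred at -33.96 kb and chr10:117856011-117856793 (783 bp) at -21.7 kb, both intergenic. Downstream, chr10:117917801-117918341 (541 bp) was centred at 40.0 kb, also intergenic. The regions at -21.7 kb and at the start were wider than 92.0% and 91.0% of all Runx3-bound regions, while the other two were wider than 72.3% and 54.8%. Gaps between neighbours were 11.56, 20.69 and 39.55 kb, so no Runx3-bound regions of Ifng lay close together.

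H3K4me1 at Ifng extended from -36.7 to 86.5 kb. Of the 14 marked regions, 4 lay upstream, 1 covered the start (-1.44 to 2.08 kb, 3523 bp) and 9 lay downstream of the gene end. Their widths ran from 577 to 5600 bp with a median of 1817 bp, against 1592 bp over the whole list. The widest, chr10:117913353-117918952, was wider than 98.7% of all marked regions and held the Runx3-bound region at 40.0 kb. Marked regions thus outnumbered Runx3-bound ones mainly on the downstream side, where 1 Runx3-bound region stood beside 9 marked ones. The marked region farthest out, at 85.6 kb (1779 bp), had its nearest Runx3-bound region 44.4 kb away.

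Several conserved non-coding sequences (CNS) around Ifng are known as regulatory elements and are named by their nominal distance in kb. Only CNS-34, CNS-22, CNS-6 and CNS+18-20 were looked up, chosen with earlier results of these data known, so no share of matching elements follows. The place of CNS-34 fell inside the Runx3-bound region from -34.3 to -33.7 kb and inside a marked region from -35.7 to -33.6 kb. Likewise CNS-22 fell inside the Runx3-bound region from -22.1 to -21.3 kb and a marked region from -23.6 to -21.7 kb. At CNS-6 no region of either list was present at the nominal place, with the nearest marked region (-5.45 to -4.61 kb) 0.55 kb away and the nearest Runx3-bound region 5.38 kb away. The place of CNS+18-20 lay in a marked region from 17.0 to 20.6 kb, and its nearest Runx3-bound region was 17.9 kb away. Nominal distances are rounded and the boundaries of these elements were not used here, so a match gives proximity alone.

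Tbx21 (ENSMUSG00000001444.2, chr11:96959385-96976645, minus strand) had 3 Runx3-bound and 7 H3K4me1-marked regions in a window of 77.3 kb. As many Runx3-bound regions in the body extended by 30 kb were seen for 7.92% of protein-coding genes, and as many marked regions for 4.66%. All 10 regions lay upstream of the start, and neither list had a region in the gene body or within 1 kb of the start. Per 100 kb of window this came to 3.88 Runx3-bound and 9.06 marked regions. Ifng had 1.95 and 6.83, but with an extension of 100 kb instead of 30 kb, so these densities are not on an equal footing. Extended by 30 kb, Ifng had 2 Runx3-bound and 6 marked regions. At that extension marked regions took 23.4% of the sequence at Ifng and 22.0% at Tbx21.

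The Runx3-bound regions of Tbx21 formed a close pair and a separate region. The pair, chr11:97004653-97005211 (559 bp, centred at -28.3 kb) and chr11:97003235-97003947 (713 bp, -26.9 kb), was separated by 705 bp and lay in introns of Tbkbp1, a neighbouring gene on the same strand. The nearest annotated transcript starts to them were those of Tbkbp1, 6.09 and 7.43 kb away, so position does not assign the pair to Tbx21 rather than to Tbkbp1. The remaining one, chr11:96990307-96990664 (358 bp), was intergenic at -13.8 kb. It was the narrowest of the 9 Runx3-bound regions at the loci, with 12.1% of the list narrower.

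Marking upstream of Tbx21 was broad. When H3K4me1-marked regions less than 1 kb apart were joined, the whole list gave 14899 blocks, and the 7 regions here formed 2 of them. One spanned -19.6 to -7.79 kb (chr11:96984435-96996223, 11.8 kb, 5 marked regions and 1 Runx3-bound region) and was wider than 99.2% of all blocks. A block at least as wide was overlapped by 0.765% of protein-coding genes extended by 30 kb. The other block spanned -31.8 to -23.9 kb (chr11:97000585-97008472, 7.89 kb, 2 marked regions and 2 Runx3-bound regions), wider than 97.4%, and reached into coding exons of Tbkbp1. Ifng had 11 blocks in its wider window of 205 kb, so the numbers of blocks are not on an equal footing. The widest, from 35.25 to 41.44 kb, measured 6.19 kb and was wider than 94.9% of all blocks. It lay beyond an extension of 30 kb.

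Eomes (ENSMUSG00000032446.8, chr9:118387330-118395250, plus strand) had 2 Runx3-bound regions and 0 H3K4me1-marked regions in a window of 67.9 kb. At least 2 Runx3-bound regions within 30 kb were found for 18.1% of protein-coding genes, and 0 marked regions for 55.4%. Among the 4038 genes with at least 2 Runx3-bound regions, 297 (7.36%) had 0 marked regions, and Eomes was one of these. The Runx3-bound regions, chr9:118397189-118397807 (619 bp) at 10.2 kb and chr9:118398553-118399191 (639 bp) at 11.5 kb, were 745 bp apart and lay just past the gene end, in intergenic sequence. They were wider than 72.3% and 75.9% of the list. The closest marked regions were 62.5 kb to one side and 183.4 kb to the other.

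Farther upstream of Eomes, beyond the window, regions of both lists were present. Between 30 and 100 kb from the gene body, 4 Runx3-bound regions were centred at -72.7, -61.5, -57.1 and -53.7 kb, and 9 marked regions at -99.1 to -53.7 kb, all upstream and intergenic. Each of these 4 Runx3-bound regions overlapped H3K4me1. For Tbx21 the same ring held 3 Runx3-bound regions, of which those at -71.7 kb (an intron of Kpnb1) and -43.8 kb overlapped H3K4me1 and that at 93.1 kb (Sp6 and Gm11532) did not. With 100 kb for all genes, Tbx21 and Eomes thus had 6 Runx3-bound regions each, against 4 for Ifng. At that extension the median over 22350 protein-coding genes was 1 Runx3-bound and 2 marked regions. At least 4 Runx3-bound regions were found for 17.0% of these genes and exactly 6 for 539 of them, while exactly 9 marked regions were found for 530.

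**Figure D1:**
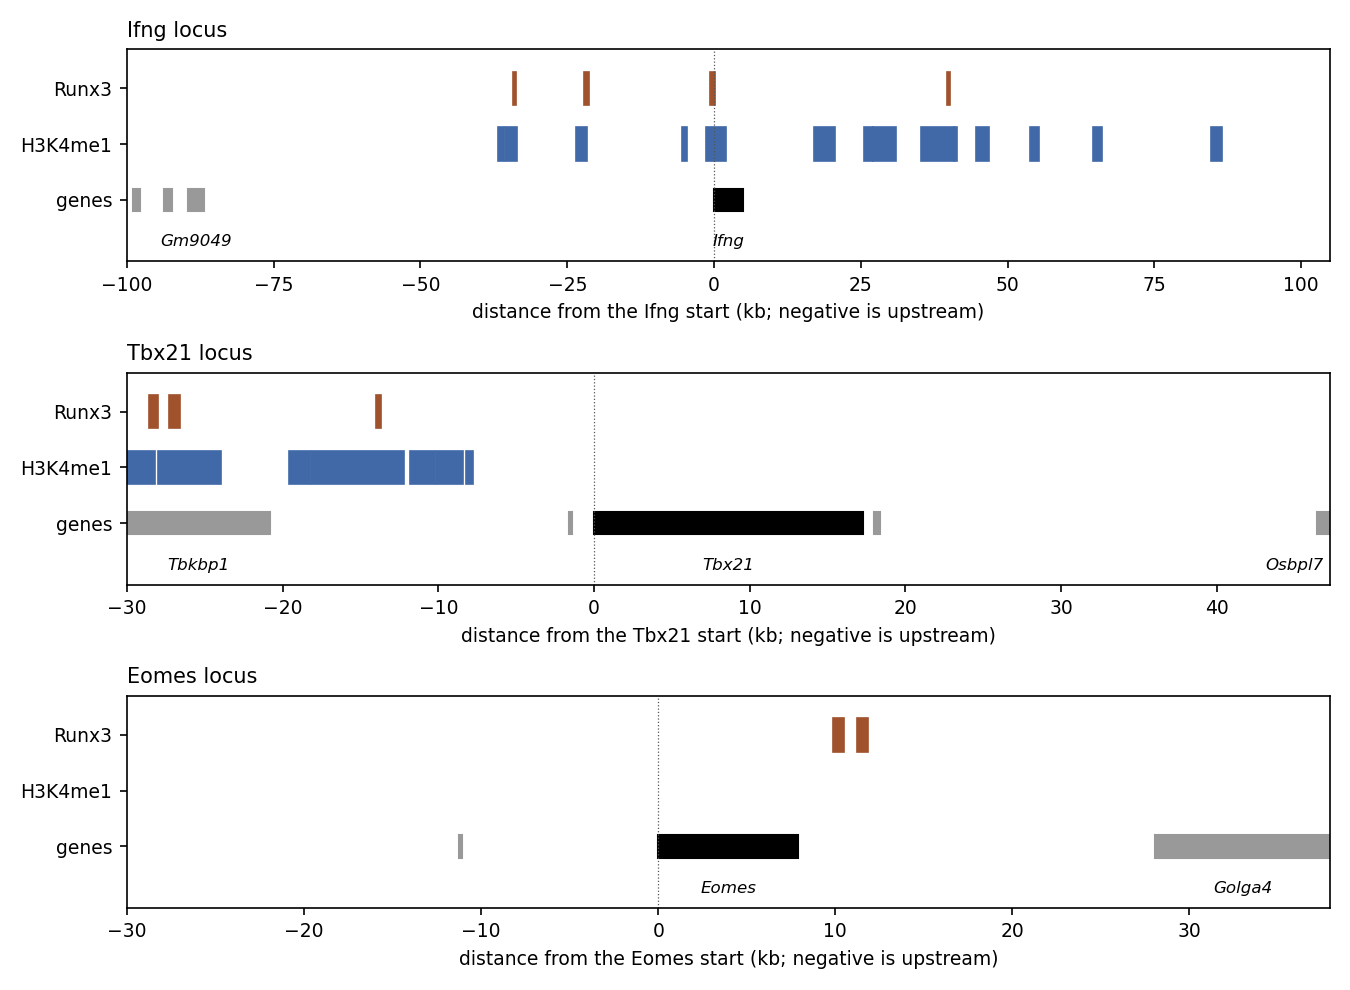
Regions of the Runx3 list (brown) and the H3K4me1 list (blue) in the windows of Ifng, Tbx21 and Eomes, with the gene itself in black and neighbours in grey, against distance in kb from the start of the gene. Ifng shows 4 Runx3-bound and 14 marked regions (some of which touch at this scale) on both sides, Tbx21 shows 3 and 7 on the upstream side, and Eomes shows 2 and 0, past the gene end.

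**Figure D2:**
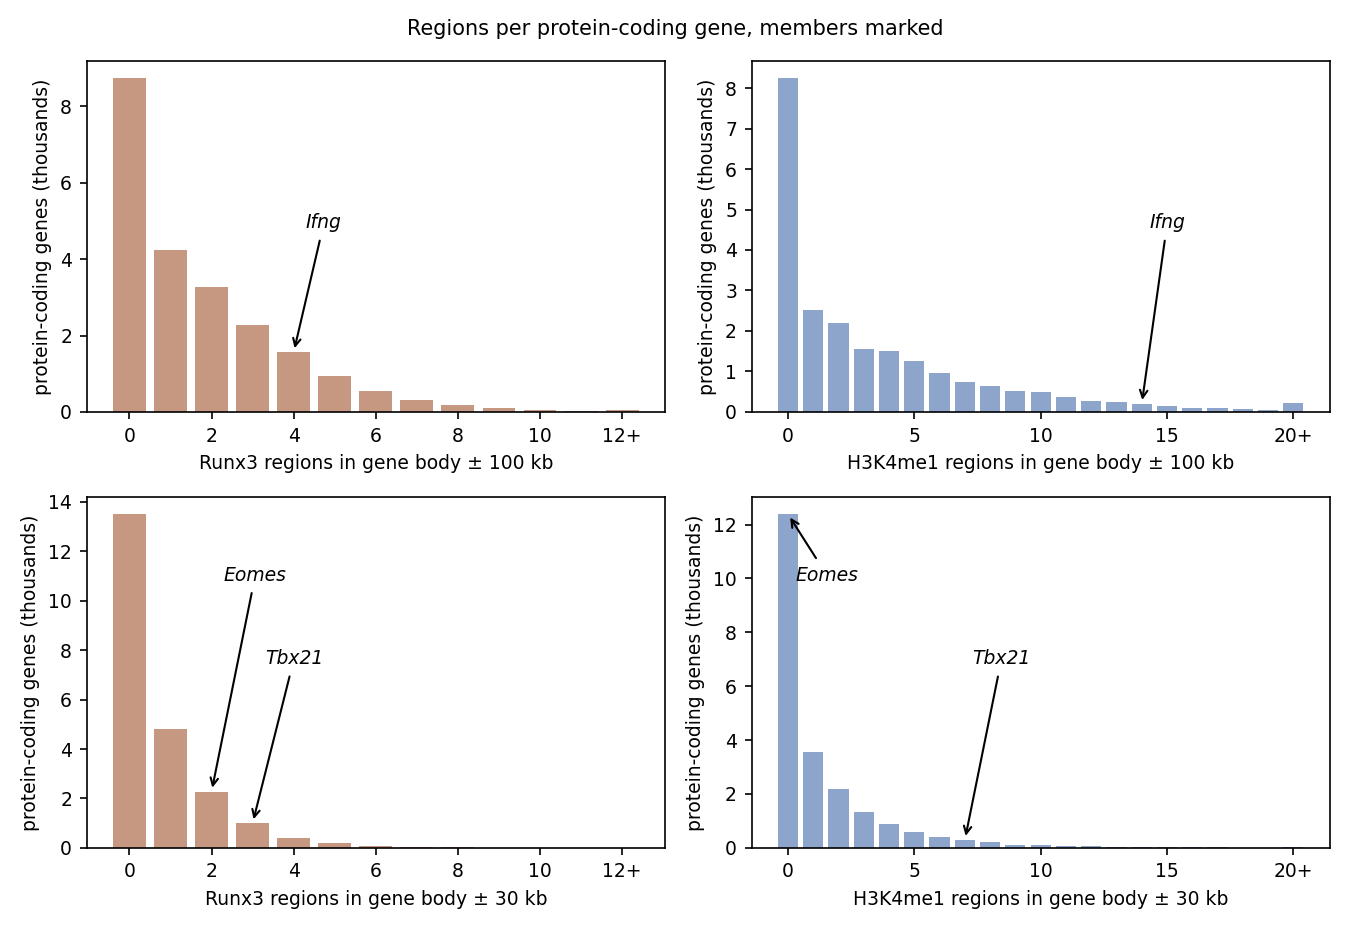
Number of protein-coding genes (in units of 1000, of 22350 in all) by the number of Runx3-bound (brown) or H3K4me1-marked (blue) regions in the gene body extended by 100 kb (top) or 30 kb (bottom), with arrows at Ifng, Tbx21 and Eomes. Ifng sits at 4 and 14 regions in the upper plots, and in the lower ones Tbx21 sits at 3 and 7 and Eomes at 2 and 0, where most genes also have 0 marked regions.

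Overlap of the lists was then compared among the loci. Of the 9 Runx3-bound regions, 7 overlapped H3K4me1 by 1 bp or more (77.8%), against 57.3% of all 9135. These were 4 of 4 at Ifng, 3 of 3 at Tbx21 and 0 of 2 at Eomes. In the other direction, 7 of the 21 marked regions held a Runx3-bound region (33.3%), against 29.2% of all 18992, which is close to the share over the list. Both groups are small and were not tested against the lists.

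The manner of overlap differed from region to region. In all, 5 of the 7 were covered over their whole length, namely those of Ifng at -33.96, -0.233 and 40.0 kb and those of Tbx21 at -26.9 and -13.8 kb. The Ifng region at -21.7 kb was covered over 368 bp (47.0%) and ran 415 bp past the end of the marked region. The Tbx21 region at -28.3 kb bridged a gap of 206 bp between neighbouring marked regions, of which it touched one over 351 bp and the other over 2 bp. Within 5 kb on either side of the centre, marked regions took 30.1%, 18.5%, 41.5% and 64.6% of the sequence for the 4 Ifng regions in order along the gene. The Tbx21 regions had 76.8%, 76.8% and 94.9%, and the pair shares part of that sequence. Both Eomes regions had 0%. Over all Runx3-bound regions the median was 19.7%, and 28.2% of them had 0. These values describe the surroundings of single regions, which are not replicates of a locus. Over the gene body extended by 30 kb, the marked share was 23.4% at Ifng, 22.0% at Tbx21 and 0% at Eomes.

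**Figure D3:**
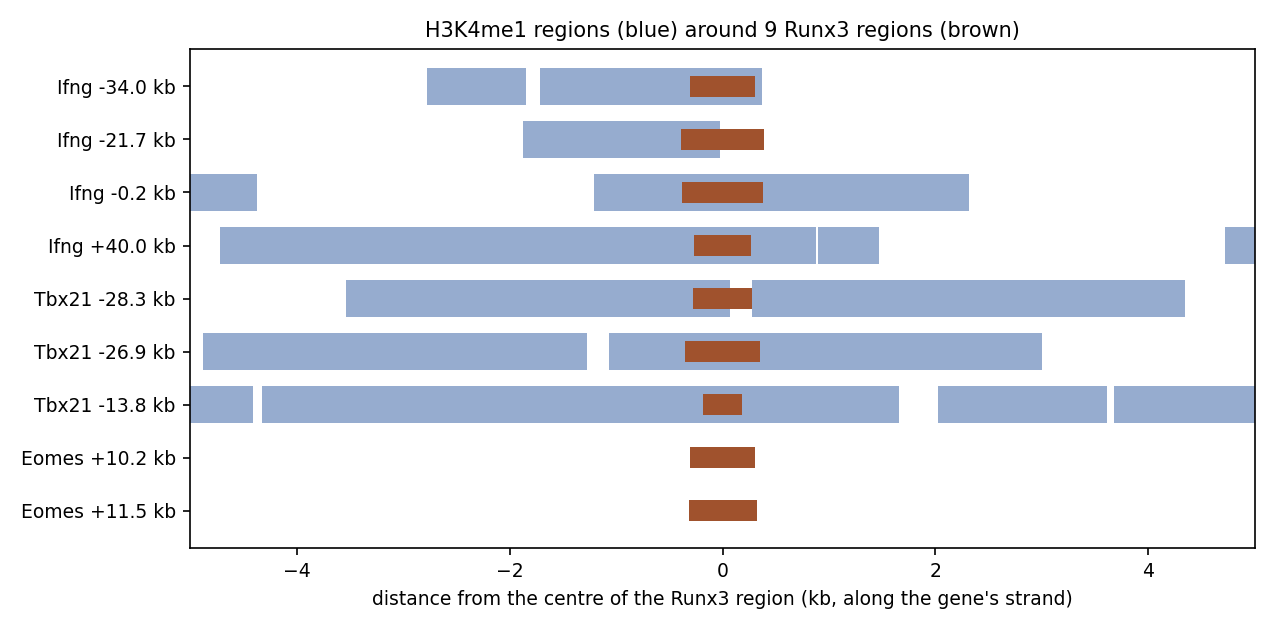
H3K4me1-marked regions (blue) within 5 kb of the centre of each of the 9 Runx3-bound regions (brown), against distance in kb along the strand of the gene. The marked sequence is broadest around the 3 Tbx21 regions (76.8% to 94.9%) and absent around both Eomes regions.

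Motif letters were counted in the Runx3-bound regions on both strands. RUNX letters were present in 9 of 9 regions, against 92.6% of the whole list, and in the central 200 bp in 8 of 9, against 78.8%. The exception was the Eomes region at 11.5 kb, where the centre of the RUNX motif lay 113 bp from that of the region. Per region the counts were 4, 1, 4 and 2 for Ifng from upstream to downstream, 2, 4 and 2 for Tbx21 from far to near, and 1 and 1 for Eomes, where the median over the list was 2. The TGTGGT form occurred in 7 of 9 regions, against 69.6%. Both regions without it were those of Eomes, with TGCGGT at 10.2 kb and TGTGGC at 11.5 kb, as the stretches printed above show.

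RUNX motifs stood in pairs in some regions. A gap of at most 50 bp between RUNX motifs was found in 3 of 9 regions, against 37.9% of the list. The gaps were 14 bp in the Ifng region at -33.96 kb, 42 bp in that at 40.0 kb and 9 bp in the Tbx21 region at -13.8 kb. In the Tbx21 region the motifs pointed away from each other (ACCACA followed by TGTGGT), an arrangement with a gap of at most 9 bp that was present in 1 of 9 regions and in 1.96% of the list. This arrangement was chosen for description after its sequence had been seen. The midpoint of that region fell inside the nearer of its motifs, 2 bp from the motif's own centre.

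Letters of other factors were counted in the same way. ETS letters were AGGAAA with its variant ending in G, written AGGAAG, and the forms that start with C. The latter are written CGGAAA when ending in A and CGGAAG when ending in G. ETS letters were in 9 of 9 regions, against 88.9%. The most, 9, were in the Ifng region at -21.7 kb, which had 1 RUNX motif. That region was also the widest of the 9 (783 bp), and no number of matches per region over the list is set beside it. NFAT letters (GGAAAA, which can overlap an ETS match) were in 4 of 9, against 36.3%, and STAT letters (TTCNNNGAA) in 4 of 9, against 21.5%. AP-1 letters were in 1 of 9, against 13.5%, in the Eomes region at 10.2 kb, 26 bp from its RUNX motif. T-box letters were in 3 of 9, against 11.3%. They lay at -0.269 kb and 40.2 kb of Ifng and at 11.5 kb of Eomes, and 0 were found in the Tbx21 regions. The 9 regions had a median width of 619 bp, against 521 bp over the list, and a wider region has more room for a match. In the central 200 bp, T-box letters were in 2 of 9 regions (5.31% of the list) and STAT letters in 2 (10.7%). There NFAT letters were in 1 (13.9%), AP-1 letters in 1 (6.49%) and ETS letters in 7 (66.1%). A letter match describes the sequence and is not a measured site of the factor named.

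In the 300 bases before the Ifng start, RUNX letters occurred 1 time, at -0.159 kb, T-box letters 1 time, at -0.269 kb, and STAT letters 1 time, at -0.250 kb. Stretches of the same length before the start of 22350 protein-coding genes held RUNX letters in 42.8%, T-box letters in 3.84%, STAT letters in 8.22% and both RUNX and T-box letters in 1.75%. ETS letters also occurred 1 time (64.1% of genes), while AP-1 (4.50%) and NFAT letters (25.0%) were found 0 times. The T-box letters before the Ifng start lay near the middle of the Runx3-bound region. The RUNX motif closest to them, 99 bp away, was that at -0.374 kb, inside the region but outside these 300 bases.

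By G and C content the Ifng regions lay below those of the other loci, whose ranges overlapped. G and C made up 42.8% to 46.7% of the Ifng regions, 50.3% to 58.9% of the Tbx21 regions and 53.1% and 54.6% of the Eomes regions. CpG dinucleotides numbered 23 and 18 in the Eomes regions, 7 to 12 in those of Ifng and 3 to 13 in those of Tbx21. Widths overlapped between the loci.

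**Figure D4:**
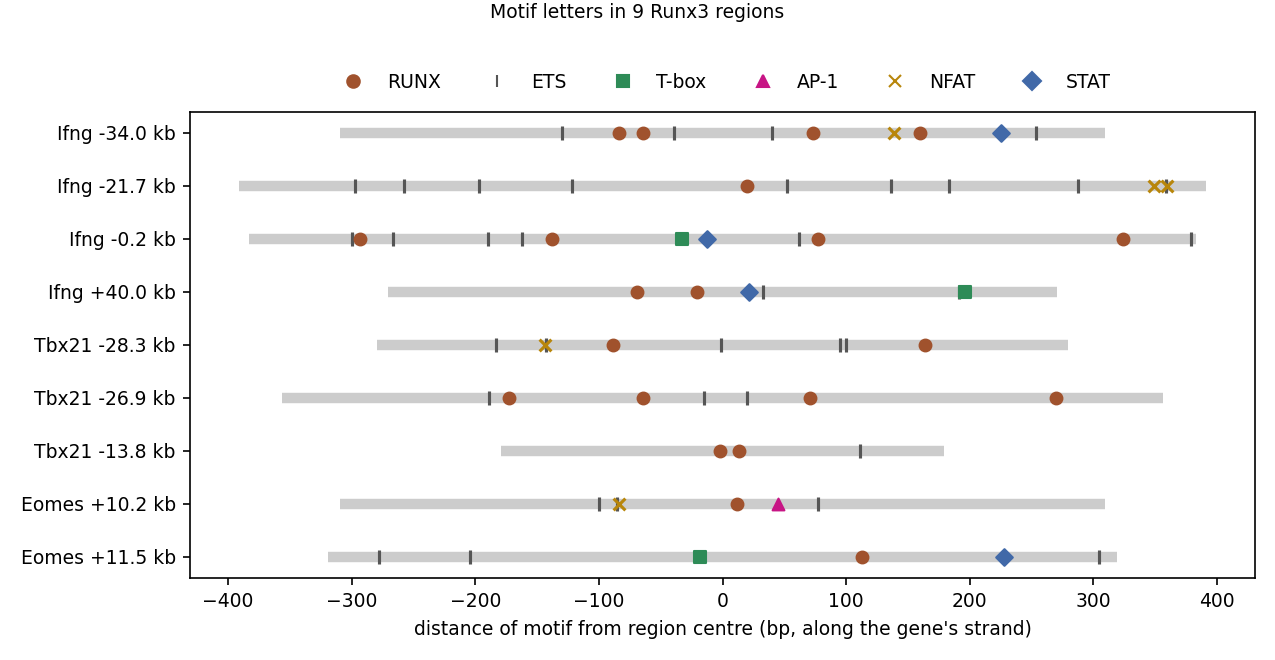
Places of RUNX, ETS, T-box, AP-1, NFAT and STAT letters (symbols) in each of the 9 Runx3-bound regions (grey bars), against distance in bp from the region's centre along the strand of the gene. Every region holds RUNX letters, the closest pair is at Tbx21 -13.8 kb, and T-box letters (green) appear in 3 regions.

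Genes of a list compiled for interferon gamma production and response were counted for regions within 30 kb of the gene body. At this extension Ifng itself had 2 Runx3-bound and 6 marked regions, with 23.4% of the sequence marked. Of the 19 genes of the list, 18 had a Runx3-bound region and 19 a marked region, against 39.6% and 44.6% of protein-coding genes. The medians were 3 and 8 regions. These counts include Gzmb and Prf1, which encode the cytotoxic granule proteins granzyme B and perforin. Both had regions of both lists. Most Runx3-bound regions were listed for Socs1, which restrains JAK-STAT signalling, with 10 (7 overlapping H3K4me1) and 58.8% of the sequence marked. Next, with 6 each, came Gzmb (granzyme B, 4 overlapping), Il12rb2 (a chain of the IL-12 receptor, 4 overlapping) and Stat4 (the STAT factor activated by IL-12, 5 overlapping). Both receptor chains of interferon gamma were included, with 3 for Ifngr1 and 5 for Ifngr2. Hlx, a homeobox factor linked to Ifng activation, was the gene with 0 Runx3-bound regions and had 1 marked region.

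The T-box family was counted in the same way. Of 15 T-box genes besides Tbx21 and Eomes, most of them factors of embryonic patterning, 2 had a Runx3-bound region and 3 a marked region, against the same 39.6% and 44.6% of protein-coding genes. Tbx6 had 2 Runx3-bound regions (1 overlapping H3K4me1) and Tbx10 had 1, compared with 3 for Tbx21 and 2 for Eomes. Of the 10 genes reported here that define other T cell lineages, 6 had a Runx3-bound region and 6 a marked one, against 39.6% and 44.6% again. The most among these 10 were 2, at Foxp3, the factor of regulatory T cells, and neither overlapped H3K4me1. The IL-17 genes Il17a and Il17f had a Runx3-bound region each and 0 marked regions, as Eomes had 2 and 0. Neighbouring genes such as Il4 and Il13, or Il17a and Il17f, can share regions at this distance.

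**Figure D5:**
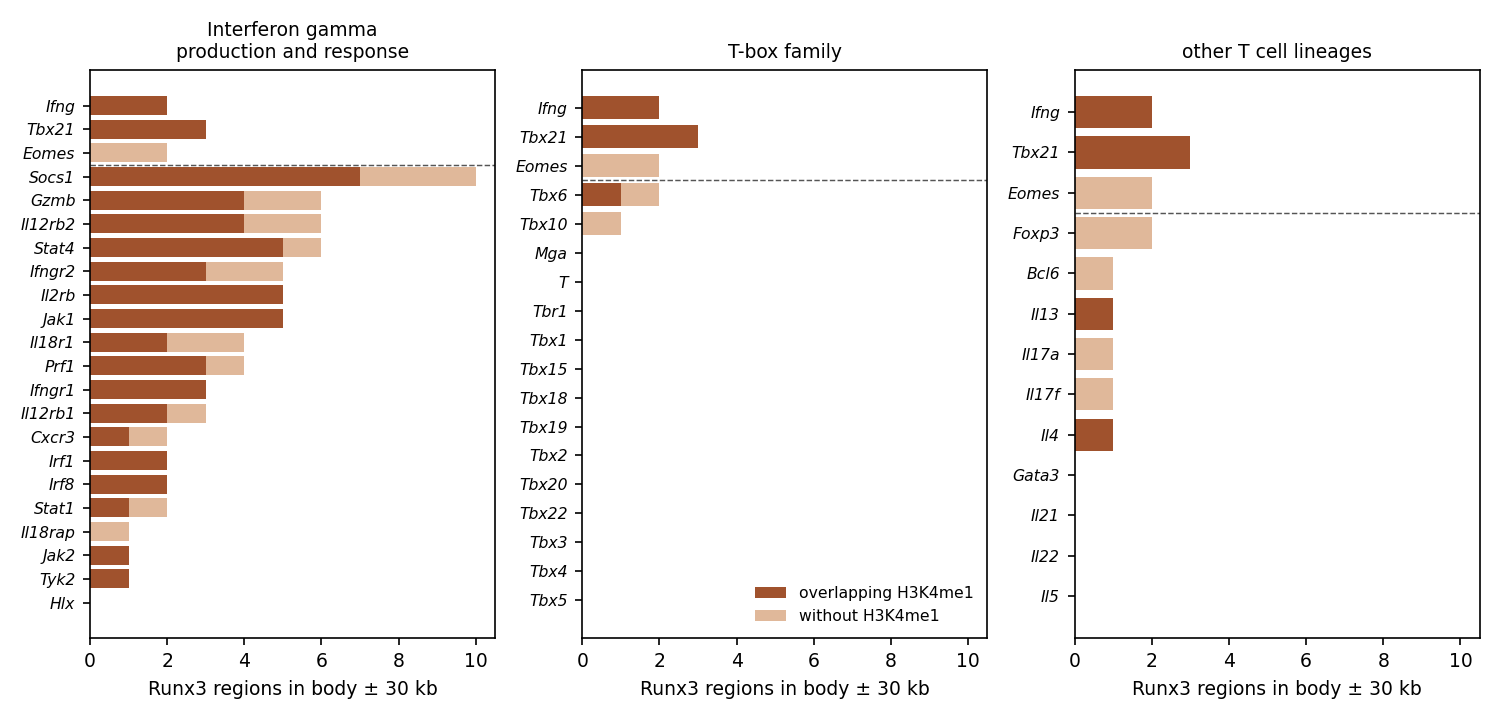
Number of Runx3-bound regions in the gene body extended by 30 kb for Ifng, Tbx21 and Eomes (above the dashed line) and for the genes of 3 lists, split into those overlapping H3K4me1 (dark) and those without (light). Bars reach 10 at Socs1, 13 of 15 T-box genes have 0, and both Eomes regions are without H3K4me1.

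Likeness to other genes was measured by the same numbers of Runx3-bound and of H3K4me1-overlapping Runx3-bound regions within 30 kb and, among those, by the nearest marked share of sequence. Ifng shared its counts with 554 genes, of which Tuba4a (23.7%), 2810422J05Rik (23.1%) and A430110L20Rik (24.1%) were nearest. Tbx21 shared its counts with 225 genes and was nearest to Ifitm2 (22.0%), Ptk2b (21.4%) and Nfatc2 (21.3%), with its own share at 22.0%. Eomes shared its counts with 777 genes, of which 259 were tied at 0% marked sequence, so none could be singled out.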

How the data were processed

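ChIP-seq libraries had been made with antibodies to Runx3 and H3K4me1 and with NIS, and per the labels chromatin was sheared to about 300 bp. The authors aligned reads to mm9 with ELAND, pooled reads of the repeats and ran MACS with NIS as control. The deposited values are peak positions in bp, without other measurements. A region of 1 repeat may therefore be included, and the calls depend on a read depth that was not analysed here.

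Coordinates count from 1. Genes were from GENCODE vM1, sequence from NCBIM37 (mm9), and 22350 protein-coding genes of the autosomes and X served as background. Overlap required 1 bp and motifs were exact letter matches. No test was run, as there is 1 list per antibody. All regions in the windows were named, with list genes named by most Runx3-bound regions. Members and lists were chosen with earlier results of these data known, and 1 gene of the list of other T cell lineages is not reported here. Comparison of motif pairs and blocks followed inspection of the data. Functions, tested on simulated data, ran in Python 3.11.15 with pandas 2.3.3, NumPy 2.4.6 and SciPy 1.17.1, and figures were drawn in matplotlib 3.10.9.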

Additional observations from a re-analysis of the deposited data

How the results depend on the processing

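Of 42 values under alternative settings for 11 results, 28 stayed close and 14 moved, where close meant within 1.5 times for counts and inside the exact 95% binomial interval of the value reported for percents of genes, which covers counting error only. With a 30 kb window for all genes, Ifng had 2 Runx3-bound and 6 marked regions instead of 4 and 14. With 100 kb for all, Tbx21 had 6 Runx3-bound regions, and Eomes had 6 together with 9 marked ones instead of 0. The medians over all protein-coding genes at 100 kb were 1 and 2. Joining regions less than 1 kb apart left 1 Runx3-bound region at Eomes and 2 marked regions at Tbx21. Keeping regions of at least the median width left 8 marked regions at Ifng and 4 at Tbx21. The percent of genes with as many Runx3-bound regions as Ifng was 18.3 among genes of similar body length, 24.4 among genes with a region of either list and 18.1 with 30 kb (added after seeing the data), against 17.0. Among genes with a region of either list it was 15.1 for Tbx21 and 34.4 for Eomes.

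Overlap with H3K4me1 held for 6 of 9 Runx3-bound regions when the centre, or 50% of the region, had to be covered, and for 7 with marked regions widened by 500 bp. The lists hold no scores, so a stricter threshold was not run. No paired analysis was possible because peaks were called on joined reads. Read depth and peak height, which limit what the lists can show, were not analysed here.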
